A study of Mus musculus with 16 samples.

Results

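Tcf7, Lef1, Bach2, Satb1, Id3, Ccr7, Il7r and Slamf6 are 8 genes whose transcripts mark naive, memory and stem-like T cells. They were taken by symbol from a count table of 55450 genes, where each has 1 row, and were followed in tumor-infiltrating lymphocytes (TILs) of mice with and without Sirt2, which encodes an NAD+-dependent deacetylase. CD4+ and CD8+ TILs were taken from tumors that the mouse melanoma line B16F10 formed after s.c. injection, in wild-type (WT) C57BL/6J mice or in Sirt2-/- mice of the strain B6.129-Sirt2tm1.1Fwa/J, used at 7 to 8 weeks of age. The 4 groups, labelled CD4 WT, CD4 Sirt2KO, CD8 WT and CD8 Sirt2KO, hold 4 libraries each (n = 4, 16 libraries). The knockout is in the germline, so T cells and other host cells alike lack Sirt2, while the injected melanoma cells do not carry the deletion. TILs were enriched by density gradient and CD3ε beads, and 1 ng of RNA entered each stranded, ribosomal RNA-depleted library. The labels do not say whether CD4+ and CD8+ libraries with the same number share a mouse. The p-values set a fitted difference against the spread between these libraries and, unless a block is named, treat each library as independent.

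Naive and memory T cells keep a gene program that activated effector cells lose. TCF-1 and LEF-1, encoded by Tcf7 and Lef1, bind the same DNA motif and sustain self-renewal, and in chronic infection and tumors TCF-1 with the surface receptor Ly108 (Slamf6) marks stem-like exhausted CD8+ T cells that can still give rise to effector-like progeny. CCR7 and the IL-7 receptor guide such cells to lymph nodes and keep them alive.

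Totals were 28000949 to 62407851 counts per library. Sirt2 stood at 0 to 12.4 CPM (the count scaled to library size) in the 8 Sirt2KO libraries and at 32.8 to 73.5 CPM in the 8 WT libraries, with no overlap. At least 1 count was found on 17730 to 22138 genes in 13 libraries, but on 8169 genes in CD4 Sirt2KO library 4, 12587 in CD4 WT library 1 and 14411 in CD8 WT library 1. The members' comparisons are therefore given with and without these 3 libraries, called low-detection below. The summed level of 8 T cell markers was 2110 to 2970 CPM over all libraries. That of 3 CD4 lineage markers (Cd4, Zbtb7b, Cd40lg) was 435 to 721 CPM in CD4+ and 0.742 to 12.3 CPM in CD8+ TILs. That of 3 CD8 lineage markers (Cd8a, Cd8b1, Runx3) was 181 to 306 CPM in CD4+ and 1770 to 2412 CPM in CD8+ TILs.

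All levels below are CPM on library sizes scaled by TMM, the trimmed mean of M values, over all 16 libraries. Per kilobase of exon, which allows genes to be compared, Tcf7 was the most abundant of the 8 transcripts in CD4 WT TILs, at a mean of 230.3 CPM per kb (range 194 to 277), followed by Il7r at 117 (84.9 to 143). Lef1 at 36.7 (33.04 to 44.0) and Ccr7 at 33.7 (25.6 to 40.8) overlapped each other, as did Slamf6 at 18.3 (12.6 to 23.1), Satb1 at 15.9 (10.6 to 22.2) and Bach2 at 12.1 (8.39 to 16.8) CPM per kb. Id3 was lowest, at 1.02 CPM per kb (0 to 2.23). In mean CPM, CD4 Sirt2KO was the highest of the 4 groups for all members but Id3, for which CD8 WT was. Groups next to each other in the order of means overlapped for every member, except Slamf6, where CD4 WT lay wholly above CD8 Sirt2KO.

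The question put to the WT groups was how the program differs between the cell types. Il7r, Slamf6, Tcf7 and Lef1 were lower in CD8 WT than in CD4 WT TILs, and for each of these 4 genes every CD8+ library lay below every CD4+ library. Of these 4, Il7r and Slamf6 differed most, by about 3-fold in their mean CPM, and Bach2, Satb1, Id3 and Ccr7 did not pass the test. In Sirt2KO TILs the fitted differences had the same sign for those 4 genes, but Slamf6 alone passed. In bulk RNA, fewer cells of a kind and less RNA per cell cannot be told apart.

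**Figure D1:**
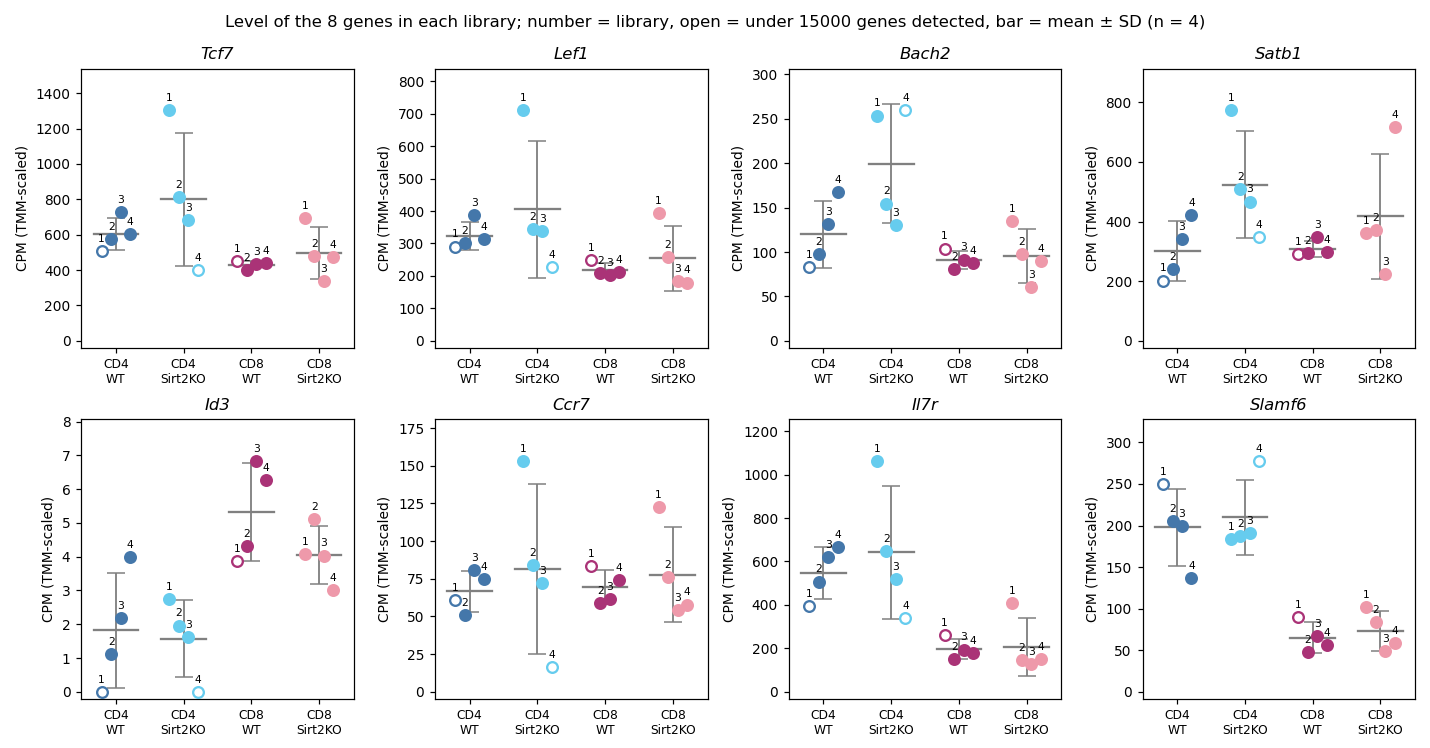
Level in CPM (y axis, TMM-scaled) of each of the 8 genes in the 16 libraries, by group (x axis). Points are libraries with their number, open points have under 15000 genes detected, and bars show mean ± SD (n = 4). Il7r and Slamf6 separate the cell types most, and Sirt2KO library 1 stands above the other libraries of its group for Tcf7, Lef1, Ccr7 and Il7r in both cell types.

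Among the transcription factors, Tcf7 (ENSMUSG00000000782.15, GRCm38 chr11:52252371-52283014, minus strand) had 509, 576, 728 and 606 CPM in libraries 1 to 4 of CD4 WT and 450.4, 400.4, 435 and 440.4 CPM in those of CD8 WT. The CD8+ libraries lay within a narrow band below all CD4+ libraries. The log2 fold change, CD8 over CD4, was -0.55 (SE 0.13, 95% interval -0.84 to -0.26, edgeR quasi-likelihood test, adjusted p = 0.021). Leaving out CD4 WT library 3 or 4 or CD8 WT library 2, 3 or 4 ended this call, as did 1 model of all 16 libraries (-0.47, adjusted p = 0.45). It was -0.59 (adjusted p = 0.0030) without the low-detection libraries. In Sirt2KO, Tcf7 had 1304, 810.3, 684 and 398 CPM in CD4+ and 696, 479, 338 and 472 CPM in CD8+ libraries. These groups overlapped, with a log2 fold change of -0.69 (SE 0.36, adjusted p = 0.56). Without the low-detection library CD4 Sirt2KO 4 it was -0.93 (adjusted p = 0.046).

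Lef1 (ENSMUSG00000027985.14, chr3:131110471-131224356, plus strand) encodes the partner of TCF-1 on the same motif. It stood at 290.3, 302, 387 and 312 CPM in CD4 WT and at 249.9, 209, 204 and 211 CPM in CD8 WT libraries. The groups did not overlap, with a log2 fold change of -0.62 (SE 0.14, adjusted p = 0.014), and the call ended without CD4 WT library 3 or CD8 WT library 2, 3 or 4 and in 1 model of all 16 libraries (-0.55, adjusted p = 0.40). It was -0.69 (adjusted p = 0.0011) when the low-detection libraries were left out. In Sirt2KO, Lef1 had 711, 345, 339 and 227 CPM in CD4+ and 394, 258, 184 and 179.6 CPM in CD8+ libraries, and the groups overlapped (log2 fold change -0.68, SE 0.39, adjusted p = 0.63, and -0.89 with an adjusted p of 0.13 without CD4 Sirt2KO library 4). Exons of the antisense gene Gm43352, which share 1208 bases with Lef1, held at most 2.26% of the Lef1 count in any library. The sources used here do not give the strand setting of the counting.

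Bach2 (ENSMUSG00000040270.16, chr4:32238804-32586108, plus strand) encodes a repressor that competes with AP-1 factors and restrains effector genes. It had 83.4, 97.4, 131 and 167 CPM in CD4 WT and 104, 80.8, 91.4 and 88.0 CPM in CD8 WT libraries, and the groups overlapped. The log2 fold change was -0.45 (SE 0.22, adjusted p = 0.23), and -0.61 (adjusted p = 0.023) without the 2 low-detection WT libraries, where it passed the test. In Sirt2KO, Bach2 had 254, 155, 131 and 259.8 CPM in CD4+ and 135, 97.4, 60.6 and 89.5 CPM in CD8+ libraries, a log2 fold change of -1.07 (SE 0.30, adjusted p = 0.14), or -0.93 (adjusted p = 0.063) without CD4 Sirt2KO library 4.

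Satb1 (ENSMUSG00000023927.15, chr17:51736187-51833290, minus strand) encodes a chromatin organizer needed for naive T cell gene programs. It had 202, 241, 341 and 422 CPM in CD4 WT and 290.2, 295, 348 and 298 CPM in CD8 WT libraries. The CD8+ values all lay inside the CD4+ range, and the log2 fold change was -0.03 (95% interval -0.49 to 0.43). In Sirt2KO it had 773, 508, 467 and 347 CPM in CD4+ and 361, 370.2, 223 and 716 CPM in CD8+ libraries, so the highest CD8+ library was second only to CD4 Sirt2KO library 1. Its log2 fold change there was -0.33 (SE 0.37, adjusted p = 0.95). Without the low-detection libraries it was -0.098 in WT (adjusted p = 0.74) and -0.50 in Sirt2KO (adjusted p = 0.43). The gene Gm36931, which shares 156 exonic bases on the same strand, held up to 10.5% of the Satb1 count, and the antisense gene Gm6934 up to 2.55%.

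Id3 (ENSMUSG00000007872.3, chr4:136143497-136145755, plus strand) encodes an inhibitor of E proteins that is tied to long-lived memory cells, and it had the lowest level of the 8 members. It had 0, 1.11, 2.18 and 3.99 CPM in CD4 WT, 3.88, 4.32, 6.83 and 6.26 CPM in CD8 WT, 2.74, 1.96, 1.61 and 0 CPM in CD4 Sirt2KO and 4.08, 5.11, 4.03 and 3.0 CPM in CD8 Sirt2KO libraries. Both libraries at 0 are low-detection libraries, in which 3 counts would be 0.0970 (CD4 WT) and 0.0536 (CD4 Sirt2KO) CPM. Every CD8 Sirt2KO library lay above every CD4 Sirt2KO library, whereas the WT groups overlapped. The log2 fold change was 1.48 (SE 1.10, adjusted p = 0.47) in WT and 1.36 (SE 1.31, adjusted p = 0.91) in Sirt2KO. Without the low-detection libraries it was 1.26 (adjusted p = 0.067) and 0.93 (adjusted p = 0.085), and it passed in neither genotype by this test. By limma-voom it passed in both, with an adjusted p of 0.033 in WT and 0.040 in Sirt2KO.

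Of the receptors, Il7r (ENSMUSG00000003882.5, chr15:9505788-9530176, minus strand) encodes the α chain of the IL-7 receptor. It had 396, 507, 618 and 668 CPM in CD4 WT and 259.7, 149.8, 194 and 177 CPM in CD8 WT libraries. The difference of the group means (547 against 195 CPM) exceeded the range within either group, with a log2 fold change of -1.54 (SE 0.22, 95% interval -2.02 to -1.06, adjusted p = 0.0011). Leaving out the low-detection libraries gave -1.78 (adjusted p = 1.12e-05). It held under all 17 alternatives in WT, with log2 fold changes of -1.88 to -1.34 and adjusted p of 1.89e-10 to 0.037. In Sirt2KO, Il7r had 1062, 646, 521 and 339 CPM in CD4+ and 407, 145, 126 and 149 CPM in CD8+ libraries. Only CD8+ library 1 reached into the CD4+ range, and the log2 fold change was -1.64 (SE 0.47, adjusted p = 0.15), or -1.86 (adjusted p = 0.029) without CD4 Sirt2KO library 4, where it passed.

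Slamf6 (ENSMUSG00000015314.10, chr1:171917515-171953170, plus strand) encodes Ly108, a self-binding receptor of the SLAM family. It had 249.7, 206, 199 and 137 CPM in CD4 WT and 90.2, 47.4, 67.2 and 55.9 CPM in CD8 WT libraries. In Sirt2KO it had 184, 187, 191 and 278 CPM in CD4+ and 102, 83.4, 49.2 and 58.8 CPM in CD8+ libraries. No CD8+ library of either genotype reached a CD4+ library of either genotype. The log2 fold change was -1.65 (SE 0.24, 95% interval -2.18 to -1.11, adjusted p = 0.0014) in WT and -1.52 (SE 0.26, 95% interval -2.11 to -0.93, adjusted p = 0.024) in Sirt2KO. With the low-detection libraries left out it was -1.67 (adjusted p = 9.07e-05) in WT and -1.37 (adjusted p = 0.0029) in Sirt2KO. The call held in all 17 alternatives in WT and in 12 of 18 in Sirt2KO, where the adjusted p ran from 6.26e-05 to 0.098. Among the fits with 1 library left out, it ended there without CD4 Sirt2KO library 2 or 3 or CD8 Sirt2KO library 2, 3 or 4.

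Ccr7 (ENSMUSG00000037944.8, chr11:99144196-99155077, minus strand) encodes the receptor for CCL19 and CCL21 that guides T cells into lymph nodes. It had 60.7, 50.7, 80.7 and 74.8 CPM in CD4 WT and 83.4, 59.1, 61.5 and 73.9 CPM in CD8 WT libraries. The WT means, 66.7 ± 13.6 and 69.5 ± 11.3 CPM (SD, n = 4), differed by less than the spread, with a log2 fold change of 0.0026 (95% interval -0.43 to 0.43). In Sirt2KO it had 153, 84.0, 71.9 and 16.4 CPM in CD4+ and 123, 76.2, 54.3 and 57.9 CPM in CD8+ libraries, with library 1 highest in both cell types and the low-detection library CD4+ 4 lowest of all 16. The log2 fold change was -0.07 (adjusted p = 0.998), or -0.42 (adjusted p = 0.47) without that library, and in WT -0.090 (adjusted p = 0.75) without the low-detection libraries.

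Counted over the 8 members, 4 were called between CD8 WT and CD4 WT, all lower in CD8, beside 11.9% of the 14892 genes tested in either direction and 6.96% higher in CD4. The same 4 were those whose groups did not overlap, beside 10.2% of all genes not overlapping and higher in CD4 and 11.9% not overlapping and higher in CD8. In Sirt2KO, 1 of 8 was called, lower in CD8, beside 2.24% of 15787 genes in either direction and 1.32% higher in CD4. There, Slamf6 (6.37% of all genes not overlapping and higher in CD4) and Id3 (15.4% not overlapping and higher in CD8) had groups that did not overlap. The members' median log2 fold change was -0.50 in WT and -0.69 in Sirt2KO, beside -0.02 and 0.16 over all genes tested. Without the low-detection libraries the members called were Tcf7, Lef1, Bach2, Il7r and Slamf6 in WT, where 28% of all genes were called, and Tcf7, Il7r and Slamf6 in Sirt2KO, where 25.4% were.

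**Figure D2:**
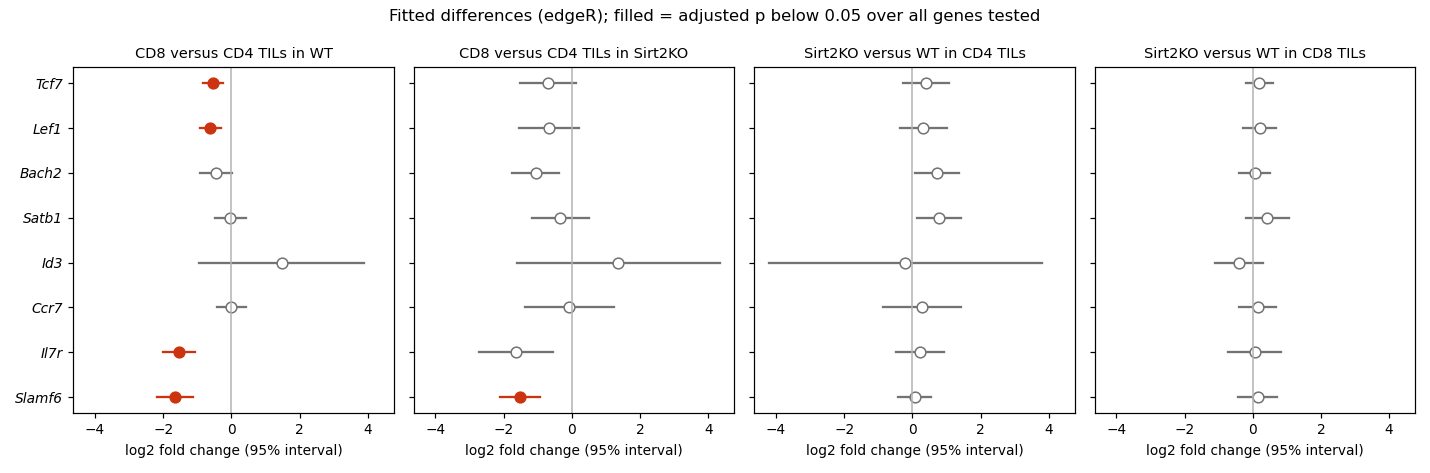
Fitted log2 fold changes (x axis) with 95% intervals for each gene (y axis) in 4 comparisons of 4 against 4 libraries. Filled points have an adjusted p below 0.05 over all genes tested: Tcf7, Lef1, Il7r and Slamf6 in WT and Slamf6 in Sirt2KO, all lower in CD8, and none between genotypes.

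CD4+ TILs also differed from CD8+ TILs in the Treg markers, whose summed level (7 genes, Foxp3 among them) was 1518 to 3149 CPM in CD4+ and 176 to 434 CPM in CD8+ libraries. All 7 were lower in CD8 WT by the same test. The part of Treg cells in the members' levels was not tested.

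For the 4 members called in WT, windows around RefSeq start sites are shown, since all 4 were lower in the same cells (GRCm38.p6, 250 bases before and 50 from each start, 5′ to 3′ on the gene's strand). All windows of the members were searched on both strands for CTTTGA, the core bound by TCF-1 and LEF-1, GTAAACA, bound by FOXO factors, and TGTGGT, bound by RUNX factors. These motifs do not overlap each other, and matches are in capitals. RefSeq listed 15 windows for 7 members and none for Ccr7. Of these, 4 windows held a match, and they are shown for Tcf7, Lef1 and Il7r, with the single window of Slamf6, which held none.
Tcf7, chr11:52282546-52282845, minus strand: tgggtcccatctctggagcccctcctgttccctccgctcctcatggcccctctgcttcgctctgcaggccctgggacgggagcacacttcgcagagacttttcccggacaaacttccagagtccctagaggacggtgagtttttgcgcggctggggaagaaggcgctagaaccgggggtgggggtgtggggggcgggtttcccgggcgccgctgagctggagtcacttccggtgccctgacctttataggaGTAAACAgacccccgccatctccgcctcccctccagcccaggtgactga
Lef1, chr3:131156044-131156343, plus strand: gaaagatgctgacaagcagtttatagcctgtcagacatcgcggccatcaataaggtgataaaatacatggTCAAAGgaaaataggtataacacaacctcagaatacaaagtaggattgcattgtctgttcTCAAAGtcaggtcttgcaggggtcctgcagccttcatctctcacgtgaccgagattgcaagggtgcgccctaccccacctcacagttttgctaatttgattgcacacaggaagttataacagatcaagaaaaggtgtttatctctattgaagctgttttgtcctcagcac
Il7r, chr15:9529827-9530126, minus strand: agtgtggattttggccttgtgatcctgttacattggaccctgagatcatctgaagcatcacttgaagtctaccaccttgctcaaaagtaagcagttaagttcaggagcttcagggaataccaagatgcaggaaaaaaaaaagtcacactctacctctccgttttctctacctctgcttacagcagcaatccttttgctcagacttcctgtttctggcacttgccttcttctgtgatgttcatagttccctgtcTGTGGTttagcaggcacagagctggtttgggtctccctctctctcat
Slamf6, chr1:171917212-171917511, plus strand: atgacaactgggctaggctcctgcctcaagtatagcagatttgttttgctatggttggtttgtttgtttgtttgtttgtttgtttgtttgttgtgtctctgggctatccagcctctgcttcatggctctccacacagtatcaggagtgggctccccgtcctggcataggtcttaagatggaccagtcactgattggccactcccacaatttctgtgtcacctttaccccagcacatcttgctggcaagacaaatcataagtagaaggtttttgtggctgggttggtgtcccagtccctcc

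The Tcf7 window, the second of 2, lies inside the annotated gene and has the FOXO letters at +1 from its start site. The Lef1 window, a start inside the gene and the most distal of 4, has the TCF/LEF letters on the opposite strand at -180 and -120, where they read TCAAAG. The other 3 Lef1 windows held no match. Il7r, with the highest CD4+ level of the receptors, has the RUNX letters at +3. The fourth window with a match belongs to Bach2, with the TCF/LEF letters at -93 on the opposite strand. Among 32851 windows of the same length, 16% held CTTTGA, 3.65% GTAAACA and 16.8% TGTGGT. A match is a description of the letters only.

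Between genotypes, the question was whether loss of Sirt2 moved the program. In CD4+ TILs, none of the 8 genes was called, nor was any of the 15070 genes tested (0% by edgeR, 1.26% at an unadjusted p below 0.05, 7 genes by DESeq2). Sirt2 itself was thus not called by edgeR. Its level was 0 to 12.4 CPM in CD4 Sirt2KO and 41.2 to 73.5 CPM in CD4 WT libraries. A lack of calls in this fit therefore does not show a lack of change. Among the members, Satb1 had the largest fitted difference, 524 ± 179.7 CPM in Sirt2KO against 302 ± 99.4 CPM in WT (SD, n = 4), a log2 fold change of 0.79 (SE 0.29, unadjusted p = 0.022, adjusted p = 0.9999). Bach2 was next, at 199.7 ± 66.7 against 119.9 ± 37.5 CPM (log2 fold change 0.73, SE 0.29, unadjusted p = 0.031, adjusted p = 0.9999). These were the 2 members with an unadjusted p below 0.05, and the groups overlapped for both, as for all 8 members (3.15% of all genes had groups that did not).

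The other members in CD4+ TILs had log2 fold changes, Sirt2KO over WT, of 0.40 for Tcf7 (95% interval -0.29 to 1.08), 0.32 for Lef1 (-0.36 to 1.01), 0.28 for Ccr7 (-0.86 to 1.42), 0.23 for Il7r (-0.48 to 0.94) and 0.08 for Slamf6 (-0.41 to 0.56). Id3, with a low-detection library at 0 in each group, had -0.21 (-4.21 to 3.79). The sign was positive for 7 of 8 members, with a median of 0.30 beside -0.11 over all genes. These values leaned on 1 library: without CD4 Sirt2KO library 1, 4 of 8 were positive, with a median of -0.02. Without the 2 low-detection libraries, 0 of 8 members and 0.0374% of genes were called, and Satb1 had 0.80 (unadjusted p = 0.0045, adjusted p = 0.75).

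In CD8+ TILs, 0 of 8 members were called, beside 0.00654% of 15302 genes (1 gene) and 3.78% at an unadjusted p below 0.05, a level that no member reached. Groups overlapped for all 8 members, and 2.88% of all genes had groups that did not. Satb1 again had the largest positive difference, 418 ± 210.2 CPM in Sirt2KO against 308 ± 26.9 CPM in WT (SD, n = 4; log2 fold change 0.43, SE 0.28, 95% interval -0.19 to 1.05, unadjusted p = 0.15). Its Sirt2KO libraries ran from 223 to 716 CPM (library 4) around a WT range of 290.2 to 348 CPM. With 1 library left out, its log2 fold change ran from 0.030 to 0.65. Id3 was the member with a negative value, -0.40 (95% interval -1.10 to 0.29), and the other 6 lay between 0.05 and 0.20. The median was 0.14 beside 0.01 over all genes. Without CD8 Sirt2KO library 1, 1 of 8 members (Satb1) was positive and the median was -0.11. Without CD8 WT library 1, the low-detection library, 0 of 8 were called beside 0.0439% of genes.

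The summed level of myeloid markers was 9.92 to 38.3 CPM in CD8 Sirt2KO and 2.11 to 9.75 CPM in CD8 WT libraries. These ranges nearly touched but did not overlap, and the sums were not tested. Of 8 single markers tested, 0 were called and 4 had an unadjusted p below 0.05, all higher in Sirt2KO. None was at 0 in a CD8 Sirt2KO library, whereas 8 of 10 were at 0 in CD8 WT library 1. In CD4+ TILs the ranges overlapped, at 9.22 to 35.6 CPM in Sirt2KO and 1.45 to 15.9 CPM in WT. The 3 CD8 lineage markers summed to 181 to 306 CPM in CD4 Sirt2KO and 185 to 206 CPM in CD4 WT libraries. All 3 fitted values there were positive (median log2 fold change 1.05 beside -0.11 over all genes), and 0 were called. Stromal and endothelial markers reached 59.2 CPM in CD8 Sirt2KO library 4, the library of that group highest in Satb1 (716 CPM). They reached 57.7 CPM in CD4 Sirt2KO library 2, where Satb1 was 508 CPM. In CD4 Sirt2KO library 1, the highest of all libraries in Satb1 (773 CPM), they stood at 4.02 CPM. The part of other cells in the members' levels was not tested.

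The difference between cell types in the Sirt2 effect was tested over all 16 libraries and called no member and no gene of 17270 (0% by edgeR, 1.98% at an unadjusted p below 0.05, 2 genes by DESeq2). Bach2 had the smallest p, with an effect lower in CD8+ than in CD4+ TILs by a log2 value of -0.68 (SE 0.38, 95% interval -1.48 to 0.13, unadjusted p = 0.093). Satb1 had -0.36 (SE 0.43, unadjusted p = 0.42), and the other 6 lay between -0.20 and 0.07. Without the low-detection libraries the share of genes called was also 0%, and no member passed.

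The spread within groups was larger in Sirt2KO than in WT for these genes except Slamf6 in CD4+ TILs and Id3 in both cell types, a difference that was not tested. Leaving aside Id3, the coefficient of variation of the other 7 genes was 13.4% to 32.95% in CD4 WT and 5.03% to 28.4% in CD8 WT, but 21.6% to 69.1% in CD4 Sirt2KO and 29.8% to 64.8% in CD8 Sirt2KO. Library 1 was highest of its group for 6 of 8 members in CD4 Sirt2KO, CD8 Sirt2KO and CD8 WT TILs. Tcf7, Lef1, Ccr7 and Il7r were highest in library 1 of both Sirt2KO groups. The summed CPM of the 7 genes was 4441, 2736, 2404 and 1865 in CD4 Sirt2KO libraries 1 to 4 and 2217, 1510, 1035 and 1723 in those of CD8 Sirt2KO. In WT it was 1791, 1980, 2485 and 2387 in CD4+ and 1528, 1242, 1401 and 1345 in CD8+ libraries, a narrower range in both.

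**Figure D3:**
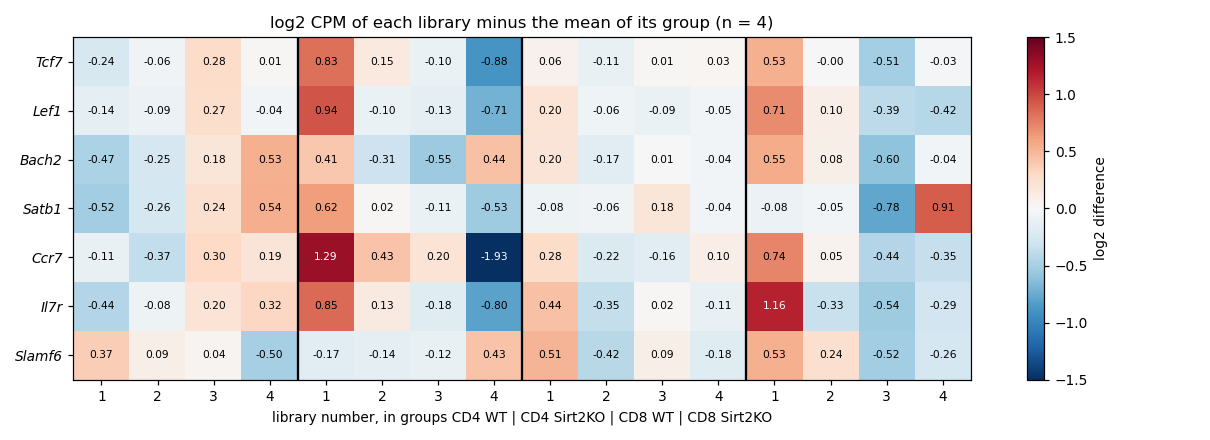
log2 CPM of each library minus the mean of its group (colour and number), for 7 genes (rows) and 16 libraries (columns, by group). Sirt2KO library 1 is red for Tcf7, Lef1, Bach2, Ccr7 and Il7r in both cell types (0.41 to 1.29), and CD4 Sirt2KO library 4, a low-detection library, is at -1.93 for Ccr7.

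The Sirt2KO libraries high in the members were also high in related genes. In Sirt2KO library 1, Klf2, a factor that drives S1pr1, had 356 CPM in CD4+ and 242 CPM in CD8+ TILs, beside 12.1 to 157 and 60.5 to 137 CPM in the other 3 libraries of each group. Klf2 was picked after its values were seen, so it is an example only. The summed level of 40 related naive, memory and stem-like genes was 8848 CPM in CD4+ library 1 (6326 to 6472 in the other 3) and 6678 CPM in CD8+ library 1 (4678 to 5366). In CD8 WT it was 5129 CPM in library 1, within the 5103 to 5240 CPM of the other 3. The opposing list of 21 effector and exhaustion genes was lowest in Sirt2KO library 1: 1129 CPM in CD4+ (2465 to 3162 in the others) and 1581 CPM in CD8+ (1887 to 2980). It was also lowest in CD8 WT library 1, a low-detection library, at 1181 CPM beside 1623 to 1796. The Treg markers were lowest in CD4 Sirt2KO library 1, at 1518 CPM beside 2790 to 3121, and in CD8 WT library 1, at 176 CPM beside 272 to 320. The pattern was not limited to Sirt2KO. In CD4 WT, library 4 had the highest sum of the relatives, at 6831 CPM beside 5397 to 6228. The same library was lowest in the effector and exhaustion list, at 1390 CPM beside 1592 to 2098. It was lowest too in the Treg markers, at 2031 CPM beside 2736 to 3149. What these differences of 1 library owe to the mouse, the cell mixture or the preparation cannot be told apart.

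Across the 13 libraries with at least 15000 genes detected, the members did not all vary together. Tcf7 and Lef1 had a Pearson r of 0.96 in log2 CPM, Tcf7 and Bach2 0.95, Il7r and Slamf6 0.92 and Tcf7 and Il7r 0.91. These points share the difference between cell types and the scaling of each library. With each group centred on its mean, r was 0.91 for Tcf7 and Lef1, 0.89 for Tcf7 and Bach2, 0.92 for Tcf7 and Ccr7 and 0.90 for Ccr7 and Il7r, but 0.53 for Il7r and Slamf6. For Tcf7 and Lef1, the centred log2 values were 0.53 to 0.71 in Sirt2KO library 1 of both cell types. They were -0.14 to 0.22 in the WT libraries, so few libraries weigh much in these r. No r was computed without Sirt2KO library 1. Satb1 had centred r of -0.05 with Slamf6, 0.19 with Lef1, 0.50 with Tcf7 and 0.62 with Bach2. Over all 16 libraries the centred r of Tcf7 and Lef1 was 0.92, whereas that of Tcf7 and Bach2 was 0.36 and that of Tcf7 and Slamf6 0.0068.

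The genes most like each member in log2 CPM over the same 13 libraries, among 17262 searched, were Rapgef6 (r = 0.98) and the pseudogene Gm8995 (0.98) for Tcf7, Gm8995 (0.98) and Traf3ip3 (0.97) for Lef1, and Thada (0.98) and Aff3 (0.96) for Bach2. For Satb1 they were Gm36931 (0.84), which shares 156 exonic bases with Satb1 on the same strand, and Cdip1 (0.83). For Id3 they were B4galt7 (0.95) and Dph5 (0.93), for Ccr7 Pik3ip1 (0.94) and Usp28 (0.93), for Il7r Pink1 (0.99) and Abcg1 (0.98), and for Slamf6 Trp53inp1 (0.97) and Gm4951 (0.97). Over all 16 libraries, Pik3ip1 alone stayed among the top 2 of its member, with r = 0.96.

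Related genes were split between the cell types. Of the 40 naive, memory and stem-like relatives, 5 were called higher and 16 lower in CD8 WT than in CD4 WT TILs, beside 11.9% of all genes called in either direction, the share against which the counts of each list in WT stand (2.24% in Sirt2KO). Eomes, a T-box factor of CD8+ effector and memory cells, had 225 ± 30.8 CPM in CD8+ and 19.3 ± 9.03 CPM in CD4+ TILs (SD, n = 4; log2 fold change 3.48, adjusted p = 3.90e-05). Bcl2, an anti-apoptotic target of IL-7 signaling, had 818 ± 38.8 against 188 ± 46.4 CPM (log2 fold change 2.06, adjusted p = 5.38e-05), opposite in sign to Il7r. Runx1 (log2 fold change -2.37) and Myb (-2.43), factors of T cell development and of stem-like cells, were lower in CD8+. In Sirt2KO, 3 relatives were called higher and 7 lower, with Runx1 at -2.51, Trib2 at -2.26, Ets1 at -1.01 and Eomes at 3.58.

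Along the IL-7 pathway, 1 of 13 genes tested was higher (Bcl2) and 6 were lower in CD8 WT, among them Stat5b (log2 fold change -1.34), the STAT that relays the signal, Mcl1 (-0.77) and Cish (-0.73). In Sirt2KO, Bcl2 was higher (2.17) and Stat5b lower (-1.36), of 14 tested. Of 7 genes of CCR7 ligands and lymph node homing, Cxcr4 (-1.72) and S1pr1 (-0.75), the egress receptor, were lower in CD8 WT, and Cxcr4 (-1.70) in CD8 Sirt2KO, there in 9 of 18 alternatives, whereas Ccr7 itself was not called.

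Of 13 Bach2 partners and opposing factors, 5 were lower in CD8 WT and none higher: Maf had 3.75 ± 1.30 against 340.1 ± 64.2 CPM (log2 fold change -6.57, adjusted p = 7.37e-07), followed by Prdm1 (-1.44), which encodes the effector repressor Blimp-1, Irf4 (-1.36) and Batf (-0.95). In Sirt2KO, Maf (-4.66) and Irf4 (-0.9996) were lower. The call of Batf held in 7 of 17 alternatives and that of Irf4 in Sirt2KO in 9 of 18. Id2, the Id protein of effector cells, was the 1 gene of 5 called among Id and E proteins and was higher in CD8+ TILs, at 1.23 in WT and 1.45 in Sirt2KO on the log2 scale. In the SLAM family, 2 of 8 genes were higher in CD8 WT, Cd244a (4.71) and Slamf7 (2.27), and 2 lower, Slamf1 (-1.97) and Cd84 (-1.04), so that Slamf6 was 1 of several lower members. In Sirt2KO, 0 of 9 were called.

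TCF-1 and LEF-1 cofactors and Wnt targets showed 1 gene lower of 15 in WT (Bcl9, log2 fold change -1.92, called in 8 of 17 alternatives) and 0 of 16 in Sirt2KO. By edgeR, SATB and chromatin organizers had 0 of 7 called in either genotype (in WT 0 and in Sirt2KO 3 at an unadjusted p below 0.05). Effector and exhaustion genes were split in WT, with 6 higher and 6 lower of 21, led by Ctla4 (-4.69) and Tnfrsf9 (-1.88), and in Sirt2KO 2 were higher (Prf1 at 3.01 and Id2) and 2 lower (Ctla4 at -4.56 and Tigit at -1.35).

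**Figure D4:**
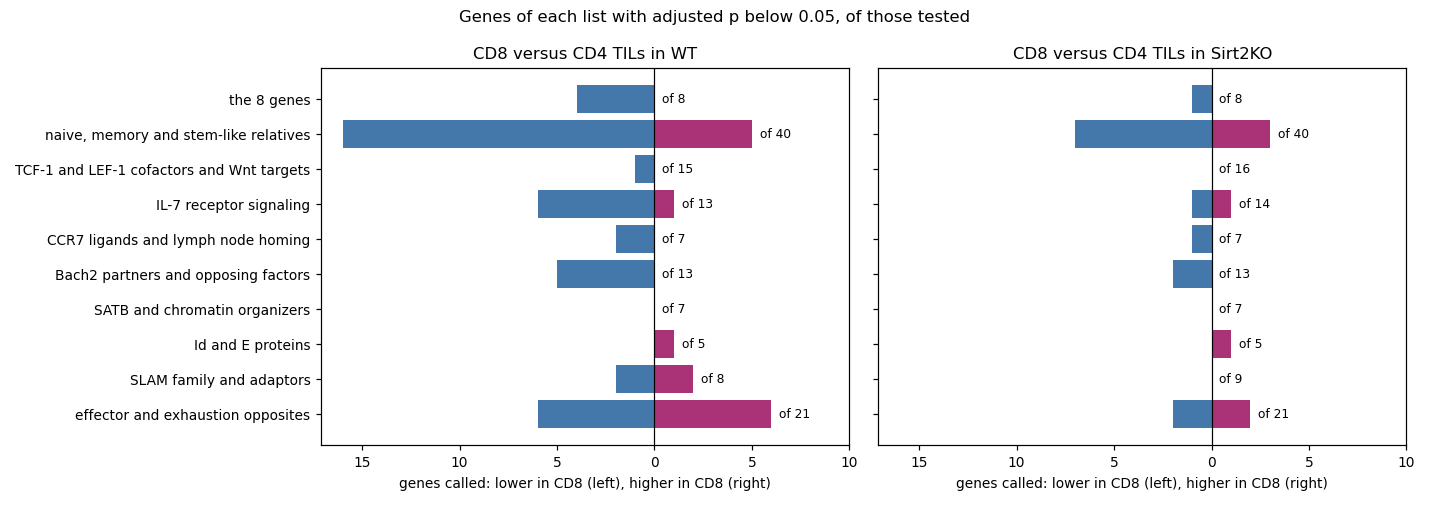
Number of genes called (x axis, left lower and right higher in CD8) in the 8 genes and 9 related lists (y axis), with the number tested beside each bar. The 40 relatives have 16 lower and 5 higher genes in WT and 7 lower and 3 higher in Sirt2KO.

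Between genotypes, edgeR called no gene of these 9 lists in either cell type. Among the relatives in CD4+ TILs, 29 of 40 fitted values were positive (median 0.20 beside -0.11 over all genes). The smallest p was that of Igfbp4, an insulin-like growth factor binding protein of naive T cells, with 86.2, 74.9, 67.9 and 83.6 CPM in Sirt2KO and 28.2, 12.5, 26.3 and 21.1 CPM in WT libraries. The groups did not overlap (log2 fold change 1.82, SE 0.31, unadjusted p = 0.00015, adjusted p = 0.9999), and the gene was called without the low-detection libraries (1.93, adjusted p = 0.0091), by DESeq2 (1.79, adjusted p = 0.00013) and by limma-voom (1.93, adjusted p = 0.0072). Igfbp4 was called in 5 of 18 alternatives and in 0 of 8 fits with 1 library left out. Trib2, a pseudokinase, followed, at 182 ± 25.9 against 99.6 ± 29.2 CPM (0.86, unadjusted p = 0.0042).

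In CD8+ TILs, 24 of the 40 relatives had positive values (median 0.11 beside 0.01). Pecam1, an adhesion receptor that naive T cells carry, had the smallest p (log2 fold change 0.56, unadjusted p = 0.014), followed by Trib2 at 37.95 ± 10.6 CPM in Sirt2KO against 24.4 ± 7.49 CPM in WT, with no overlap (0.63, unadjusted p = 0.024, adjusted p = 0.99). Among the Bach2 partners, Maf had 12.5 ± 1.86 against 3.75 ± 1.30 CPM with no overlap (1.74, SE 0.29, unadjusted p = 0.00010, adjusted p = 0.26), and it was called without CD8 WT library 1 (1.53, adjusted p = 0.018), by DESeq2 (adjusted p = 1.87e-05), by limma-voom (adjusted p = 0.013), with no filter (adjusted p = 0.040) and in 1 model of all 16 libraries (adjusted p = 0.037). Maf was called in 8 of 18 alternatives, with adjusted p up to 0.90, and in 1 of 8 fits with 1 library left out. Jun, an AP-1 factor, had a log2 fold change of 1.08 (unadjusted p = 0.0027) and was called by DESeq2 (adjusted p = 0.044), in 1 of 18 alternatives. The effector and exhaustion list had 19 of 21 positive values (median 0.28), beside 51.9% positive and a median of 0.01 over all genes. Its summed level was lowest of the WT group in low-detection library 1 (1181 CPM), and the list was not counted without that library. Tnfrsf9 had 159.6 ± 47.2 against 100.6 ± 20.3 CPM (0.66, unadjusted p = 0.011). Prf1, the pore protein perforin, had 179 ± 71.0 against 112 ± 13.4 CPM (0.66, unadjusted p = 0.015).

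Markers of other cells were low beside the T cell markers. Summed over their lists, myeloid markers (10 genes) reached 38.3 CPM, dendritic cell markers (8) 14.7, B cell markers (6) 12.2, stromal and endothelial markers (6) 59.2, erythroid markers (5) 9.05 and melanoma markers (7) 95.7 CPM in the highest library. The melanoma markers were highest in low-detection libraries, CD4 WT library 1 (95.7 CPM) and CD4 Sirt2KO library 4 (81.4 CPM). In the remaining libraries they stood at 3.92 to 15.7 CPM. NK and innate lymphoid markers (7 genes, Rora among them, which T cells also express) stood at 160.0 to 326 CPM in CD4+ and 71.9 to 97.0 CPM in CD8+ TILs. The part of these cells in the members' levels was not tested.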

How the data were processed

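Total RNA of 16 libraries was sequenced, and the authors deposited raw counts per gene as whole numbers. STAR, HTSeq and mm10 stand in the submitters' processing notes, without versions. All 55450 identifiers matched GENCODE M21 (GRCm38), which gave positions and exon lengths. Libraries were grouped by their labels. Each comparison used its 8 libraries (16 for the difference between effects) in edgeR 4.0.16 under R 4.3.3: TMM, filterByExpr, robust quasi-likelihood test, two-sided, Benjamini-Hochberg adjustment over all genes tested, calls at an adjusted p below 0.05. log2 CPM used a prior count of 2. Alternatives were DESeq2 1.42.0, limma-voom 3.58.1 with quality weights, DESeq2 size factors, other count filters (none, or a minimum of 10 in each library), 1 model of all 16 libraries, a block by library number, CPM on plain totals, and leaving out each library in turn or those with under 15000 genes detected. Leaving the latter out together with Sirt2KO number 1, or with the block, was chosen after seeing the data. The functions were tested on simulated data.

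Totals of 28000949 to 62407851 counts set the precision. Reads carry no molecular identifiers, so floors of 3 counts cover counting error only. The members and gene lists were chosen with earlier results of these data known. All 8 members are named. Of each related list, at most 4 called genes with the smallest p, or else the 2 with the smallest p, are named. Klf2 was added after its values were seen. A gene that the rule names is not reported here.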

Additional observations from a re-analysis of the deposited data

Results flagged for a closer look

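In 4 of 32 groups (8 genes in 4 groups of 4 libraries), 1 library stood apart by Dixon's test, in which the gap to the nearest library is divided by the range of the group and set against the 95% critical value for 4 libraries. Chance alone gives this in about 1 in 20 groups. Il7r was 407 CPM in CD8 Sirt2KO library 1, beside 126 to 149 CPM in the other 3 (ratio 0.917). Slamf6 was 278 CPM in CD4 Sirt2KO library 4, beside 184 to 191 CPM (ratio 0.924), and that library had 8169 genes detected. Lef1 was 249.9 CPM in CD8 WT library 1, beside 204 to 211 CPM (ratio 0.848), and that library had 14411 genes detected. Satb1 was 348 CPM in CD8 WT library 3, beside 290.2 to 298 CPM (ratio 0.863).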

How the results depend on the processing

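Among members called in the report, no log2 fold change turned sign under any alternative, and the calls of Il7r and Slamf6 between CD8 WT and CD4 WT held throughout. The number of calls, in contrast, depended on the low-detection libraries and on the tool. The causes were not tested.

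Genes called between genotypes in CD4+ TILs were 0 in the report and 0 to 0 with 1 library left out, but 7 with DESeq2, 4 with limma-voom, 6 without the low-detection libraries and 17 without these and Sirt2KO number 1. In CD8+ TILs they were 1, 0 to 7 with 1 library left out, 28 with DESeq2, 4 with limma-voom, 5 with no filter, 7 without the low-detection library and 8 without it and Sirt2KO number 1. For the difference between effects they were 0, 2 with DESeq2 and 1 without the low-detection libraries and Sirt2KO number 1. Between cell types in WT, 1765 genes became 1022 to 2767 with 1 library left out, 2651 with DESeq2, 5481 with limma-voom, 811 in 1 model of all 16 libraries and 4394 without the low-detection libraries. Members called there were 4, 2 to 4 with 1 library left out, 2 in 1 model of all libraries (Il7r and Slamf6), 5 without the low-detection libraries and 6 with limma-voom, which added Bach2 and Id3. In Sirt2KO, 354 genes became 111 to 4250 with 1 library left out, 1339 with DESeq2, 4474 with limma-voom, 907 with at least 10 counts in each library, 781 in 1 model, 4250 without the low-detection library and 3606 without it and number 1. Members called there were 1, 0 to 3 with 1 library left out, 3 with DESeq2, 5 with limma-voom, 3 in 1 model, 3 without the low-detection library and 5 without it and number 1.

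Library numbers were used as a block in a further fit. Between genotypes a shared number joins libraries of different mice, and no label gives a reason to pair them. Calls with the block between genotypes therefore rest on a pairing without a known basis. There, the best WT match of a Sirt2KO library was its own number only for number 2 of the CD4+ libraries. The deviations of same-numbered libraries from their group means had correlations of -0.08, 0.09, 0.08 and -0.05 between CD4+ genotypes, 0.03, -0.03, -0.08 and -0.002 between CD8+ genotypes, 0.11, 0.11, 0.12 and 0.10 between WT cell types and 0.14, 0.03, -0.02 and -0.03 between Sirt2KO cell types. Among the CD4 WT libraries, every CD8 WT library correlated best with that of its own number, a hint from the data only. The reverse direction was not checked. The block called 4 genes between CD8+ genotypes, 108 between Sirt2KO cell types (Il7r the 1 member, with Slamf6 at -1.56 and an adjusted p of 0.093) and the same 4 members between WT cell types. With the block and without the low-detection libraries, 104 genes and 1 member (Satb1) were called between CD4+ genotypes, 13 genes between CD8+ genotypes, 4981 genes and 6 members between WT cell types (Bach2 and Id3 added, Id3 at an adjusted p of 0.017), 4524 genes and 6 members between Sirt2KO cell types, and 3 genes for the difference between effects. With the block, log2 values turned to 0.18 for Id3 and -0.021 for Ccr7 (CD4+ genotypes), -0.083 for Il7r (CD8+ genotypes), 0.025 for Satb1 (WT cell types), 0.20 for Ccr7 (Sirt2KO cell types) and 0.14 for Ccr7 (difference between effects). With the block and without the low-detection libraries they turned to 0.18 for Id3 and -0.098 for Slamf6 (CD4+), -0.0059 for Lef1, -0.080 for Bach2, -0.038 for Ccr7 and -0.29 for Il7r (CD8+) and -0.069 for Ccr7 (WT cell types).

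Other log2 values that turned sign were not called. With 1 library left out, the CD4+ genotype values ran from -0.094 to 0.53 for Lef1, -0.62 to 0.52 for Id3, -0.22 to 0.63 for Ccr7, -0.13 to 0.44 for Il7r and -0.077 to 0.21 for Slamf6. Those of CD8+ ran from -0.0026 to 0.35 for Tcf7, -0.075 to 0.34 for Lef1, -0.14 to 0.23 for Bach2, -0.15 to 0.30 for Ccr7, -0.49 to 0.26 for Il7r and -0.037 to 0.38 for Slamf6. Between cell types they ran from -0.12 to 0.22 for Satb1 and -0.11 to 0.16 for Ccr7 in WT, and from -0.42 to 0.42 for Ccr7 in Sirt2KO. For the difference between effects they ran from -0.43 to 0.13 for Tcf7, -0.40 to 0.30 for Lef1, -0.91 to 0.23 for Id3, -0.47 to 0.37 for Ccr7, -0.72 to 0.19 for Il7r and -0.12 to 0.30 for Slamf6. limma-voom gave 0.20 for Id3 and -0.036 for Slamf6 (CD4+), -0.16 for Ccr7 (WT cell types), and 0.048 for Lef1 and 0.0026 for Il7r (difference between effects). At least 10 counts in each library gave -0.00061 for Slamf6 (CD4+). Satb1 between WT cell types was 0.00059 with DESeq2, 0.00058 with its size factors, 0.051 with no filter, 0.018 with at least 10 counts in each library and 0.045 in 1 model, and Ccr7 was -0.090 without the low-detection libraries. Without these and Sirt2KO number 1, Il7r was -0.030 (CD4+), and Bach2 -0.053, Ccr7 -0.025 and Il7r -0.30 (CD8+).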
